A study of Homo sapiens with 9 samples.

Results

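The 10 genes described here were the 6 peroxiredoxin genes PRDX1 to PRDX6, the thioredoxin gene TXN, the thioredoxin reductase genes TXNRD1 and TXNRD2, and the sulfiredoxin gene SRXN1. They were taken by name from the 27693 genes of the count table, with the transcript entry of the highest total standing for each gene. All 10 were found and all 10 were among the 14683 genes tested. Peroxiredoxins are thiol peroxidases that remove hydrogen peroxide and organic peroxides. Thioredoxin returns the oxidised 2-Cys peroxiredoxins to their active form, thioredoxin reductase recharges thioredoxin with electrons from NADPH, and sulfiredoxin rescues 2-Cys peroxiredoxins that have been overoxidised. Several of these genes are textbook targets of NRF2 (NFE2L2), the transcription factor of the oxidant response, and in the intestinal epithelium the system handles peroxides from metabolism and from the lumen.

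The measurements came from poly(A) RNA sequencing of Caco-2, an established line from a human colon adenocarcinoma, in medium whose serum had been stripped of lipids. Every group carried 10 µM lovastatin, a statin that blocks HMG-CoA reductase, for 48 h, and the 3 groups of 3 libraries differed in what was added: nothing, 10 µM SGA360 or 10 µM SGA315. Both compounds are described by the labels as selective for the aryl hydrocarbon receptor (AHR). No group without the statin was analysed here, and all values come from 1 cell line.

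Library depth ran from 12343137 to 16882576 counts when each gene was counted once. The counts behind a single value of the 10 genes ran from 236 for TXNRD2 to 8076 for PRDX1. Whether replicates were separate cultures is not stated, so the p-values rest on a spread between libraries that may be technical. Replicates of a group still differed by more than sampling noise (chi-square per degree of freedom 1.39 to 2.53 over pairs). The variation between replicates beyond counting noise, estimated by edgeR, had a coefficient of variation of 2.16%. These values do not tell separate cultures from technical repeats. All 10 markers of intestinal epithelium had counts (KRT20 at most 0.283 CPM in any library), with a summed level of 7740 to 7810 CPM (counts scaled to a common library size) in the lovastatin group, 6140 to 6550 CPM in the SGA360 group and 4710 to 4860 CPM in the SGA315 group. The 6 fibroblast markers summed to 49.1 to 52.1, 37.6 to 40.6 and 27.5 to 30.1 CPM in the same order. Nearly all of that was COL1A1 (41.2 to 42.4, 29.1 to 32.0 and 21.3 to 22.6 CPM) and PDGFRB (5.97 to 8.91 CPM over all libraries); COL1A2 and DCN were at 0.0613 CPM in 1 lovastatin library and at 0 in the other 8, and 4 of the 6 were too low to be tested. Of the 6 leukocyte markers 5 had counts (5.06 to 10.9 CPM summed, mostly CD14), and of the 4 endothelial markers 3 (1.65 to 3.18 CPM summed, KDR at 0). The part of these shifts in the results below was not tested.

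Promoter sequences show how the start regions of these genes differ. RefSeq windows of 300 bases (250 before and 50 after a transcription start, build GRCh38.p14) were found for 8 of the 10 genes, in 12 windows; those of PRDX1 and PRDX6 were not used here. The core of the antioxidant response element, which NRF2 binds with a small MAF partner, was searched as TGACNNNGC on both strands. It was in 2 of the 12 windows, both of TXNRD1, against 13.3% of 35116 windows of the same length. The core of the xenobiotic response element, which AHR binds with ARNT, was searched as GCGTG on both strands and was in 7 of the 12 windows, against 36.5% of all windows. The 2 PRDX5 windows overlap and share a GCGTG match, so both count the same site. The GC content of the 12 windows ran from 53.7% to 80.0%. That of all 35116 windows was not computed, so the shares of windows with a match are not matched for GC content. The TXNRD1 windows are shown because TXNRD1 was the only 1 of the 8 genes with an antioxidant element core in these windows. The TXN window is shown because it held the most GCGTG matches (6). Sequence outside the windows was not searched. Capitals mark TGACNNNGC or its reverse complement in the TXNRD1 windows and GCGTG or its reverse complement in the TXN window, where 2 neighbouring matches share a base. The upstream TXNRD1 window is chr12:104215529-104215828, the downstream one chr12:104286782-104287081 (both plus strand), and the TXN window chr9:110256458-110256757 (minus strand).
TXNRD1, upstream start: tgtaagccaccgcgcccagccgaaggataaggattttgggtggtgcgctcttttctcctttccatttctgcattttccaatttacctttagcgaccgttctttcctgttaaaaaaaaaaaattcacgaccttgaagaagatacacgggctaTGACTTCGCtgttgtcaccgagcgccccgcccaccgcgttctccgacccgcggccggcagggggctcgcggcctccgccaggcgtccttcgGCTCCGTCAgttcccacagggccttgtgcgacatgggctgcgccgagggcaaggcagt
TXNRD1, downstream start: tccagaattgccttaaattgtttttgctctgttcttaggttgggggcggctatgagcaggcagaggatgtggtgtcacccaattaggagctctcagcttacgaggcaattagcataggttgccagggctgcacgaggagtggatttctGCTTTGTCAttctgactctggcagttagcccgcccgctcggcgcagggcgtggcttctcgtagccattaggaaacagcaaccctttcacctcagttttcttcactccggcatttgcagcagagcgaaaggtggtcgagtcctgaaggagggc
TXN: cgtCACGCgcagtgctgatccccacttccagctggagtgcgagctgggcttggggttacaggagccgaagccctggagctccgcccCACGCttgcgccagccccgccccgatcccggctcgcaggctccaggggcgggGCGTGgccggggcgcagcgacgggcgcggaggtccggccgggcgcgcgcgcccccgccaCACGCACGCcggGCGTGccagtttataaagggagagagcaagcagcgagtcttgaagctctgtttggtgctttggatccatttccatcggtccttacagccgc
In the upstream TXNRD1 window the matches lay at bases 152 to 160 and 243 to 251 of the window, and in the downstream window at bases 149 to 157. A match is a description of the letters, not evidence that a factor binds there.

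In lovastatin-treated cells, peroxiredoxin and thioredoxin transcripts were lower with either AHR ligand added. With SGA360, 9 of the 10 genes were lower and 0 higher (background: 31.4% of all genes tested were lower and 31.4% higher). With SGA315, all 10 were lower (background: 33.2% lower, 36.0% higher). The median log2 fold change of the 10 genes was −0.42 with SGA360, where all genes tested had a median of 0.02, and −0.49 with SGA315, where it was 0.04. Both comparisons use the same 3 lovastatin libraries, so the counts are not independent of each other. When libraries were scaled by their totals alone, which put the median of all genes at 0.14 and 0.16, the lower calls were 7 and 8 of 10 and none was higher. Over all 14683 genes, that scaling called 3136 lower and 6477 higher with SGA360, and 3619 lower and 6932 higher with SGA315. Lower levels in bulk RNA can come from fewer cells of a kind or from less RNA per cell, and these cannot be told apart.

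**Figure D1:**
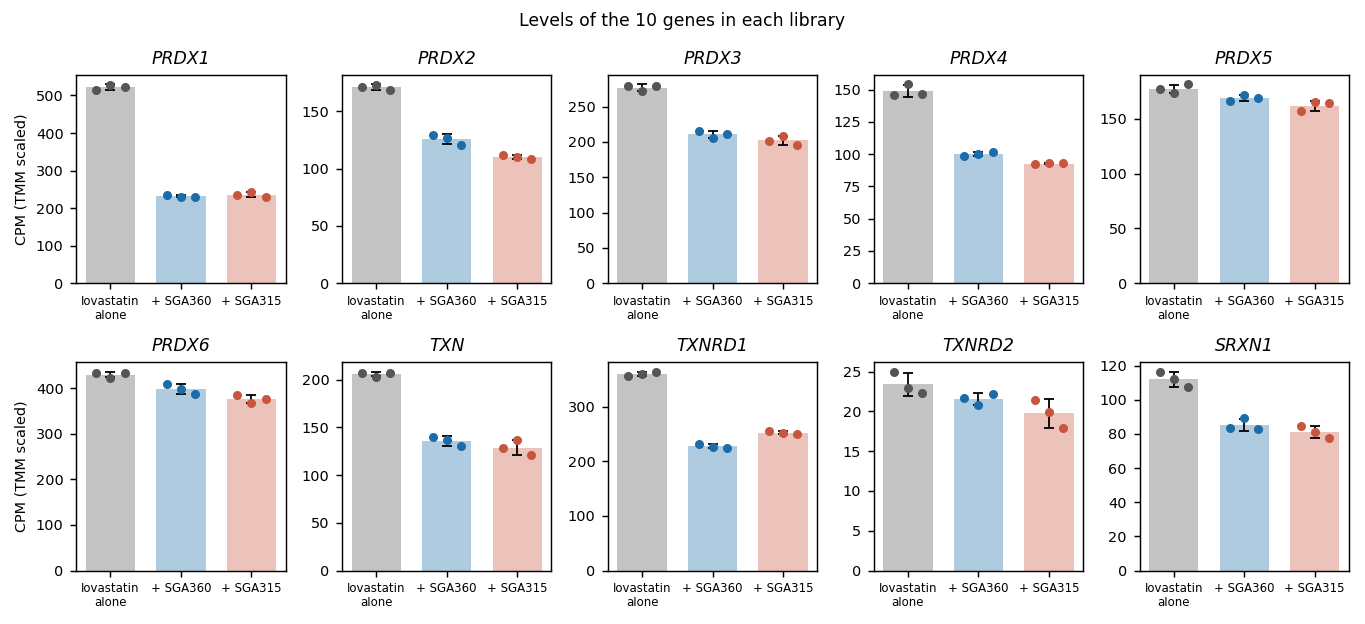
Level of each of the 10 genes in CPM (linear axis from 0, TMM scaled) with lovastatin alone (grey), with SGA360 added (blue) and with SGA315 added (red); points are the 3 libraries, bars the mean and whiskers the SD. PRDX1 fell from 515 to 529 CPM with lovastatin alone to 230 to 243 CPM with either ligand, while PRDX6 ranged from 423 to 434 CPM with lovastatin alone and from 368 to 410 CPM with either ligand.

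PRDX1, a cytosolic 2-Cys peroxiredoxin, had the largest fold change of the 10 genes with either ligand. It was at 515, 529 and 524 CPM in the 3 libraries with lovastatin alone, at 234, 231 and 230 CPM with SGA360, and at 234, 243 and 230 CPM with SGA315. The lovastatin libraries lay far above all 6 ligand libraries, and the libraries of the 2 ligands overlapped. The fall was 2.25-fold with SGA360 (log2 −1.17 ± 0.027 SE, adjusted p = 3.49e-46 by the quasi-likelihood test of edgeR with Benjamini-Hochberg adjustment) and 2.22-fold with SGA315 (−1.15 ± 0.027, adjusted p = 8.07e-46). From the most negative change upward, PRDX1 ranked 110 of 14683 genes with SGA360 and 194 with SGA315. In a test against a change of 1.5-fold, chosen after the data were seen, PRDX1 was called lower with SGA360 (adjusted p = 6.32e-30; 2.77% of all genes tested were called lower by it) and with SGA315 (adjusted p = 3.61e-29; 5.13%).

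PRDX2, the other cytosolic 2-Cys peroxiredoxin, was at 172, 173 and 169 CPM with lovastatin alone. It was at 129, 127 and 121 CPM with SGA360 and at 112, 110 and 108 CPM with SGA315. The 3 groups did not overlap, and the order was lovastatin alone, then SGA360, then SGA315. PRDX2 fell 1.36-fold with SGA360 (adjusted p = 2.74e-19) and 1.56-fold with SGA315 (adjusted p = 1.37e-26). PRDX3, the mitochondrial 2-Cys peroxiredoxin, was at 279, 272 and 279 CPM, against 215, 206 and 211 CPM with SGA360 and 202, 209 and 196 CPM with SGA315. Here too the lovastatin libraries stood above the rest, while the ligand groups overlapped. The fall of PRDX3 was 1.31-fold with SGA360 (adjusted p = 2.89e-19) and 1.37-fold with SGA315 (adjusted p = 5.87e-22). PRDX4, the peroxiredoxin of the endoplasmic reticulum, where it takes part in oxidative protein folding, was at 146, 154 and 146 CPM, then 98.4, 99.7 and 102 CPM with SGA360 and 92.0, 93.1 and 92.8 CPM with SGA315. No 2 groups overlapped for PRDX4. It fell 1.49-fold with SGA360 (adjusted p = 1.21e-23) and 1.6-fold with SGA315 (adjusted p = 3.27e-27), and the SGA315 change also passed the test against 1.5-fold (adjusted p = 0.00927).

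The 2 remaining peroxiredoxins moved little. PRDX5, an atypical 2-Cys enzyme found in mitochondria, peroxisomes and cytosol, was at 177, 174 and 182 CPM with lovastatin alone, 166, 172 and 169 CPM with SGA360 and 157, 165 and 165 CPM with SGA315. Its groups lay close together without overlapping. The log2 fold change was −0.07 with SGA360 (95% interval −0.13 to −0.01, adjusted p = 0.0423). Leaving out lovastatin replicate 3 (adjusted p = 0.0924) or SGA360 replicate 1 (adjusted p = 0.0762) ended that call, as did scaling by totals alone (0.04, adjusted p = 0.216). With SGA315 it fell by 0.13 on the log2 scale (adjusted p = 0.000222), a call lost under scaling by totals alone (−0.01, adjusted p = 0.79). PRDX5 overlaps TRMT112, a methyltransferase activator gene that had 55.7% as many counts, so its values are uncertain. PRDX6, the 1-Cys peroxiredoxin, which also has phospholipase activity and does not depend on thioredoxin, was at 434, 423 and 433 CPM, then 410, 398 and 387 CPM with SGA360 and 384, 368 and 376 CPM with SGA315. Its groups were ordered like those of PRDX2 but close to each other. PRDX6 fell by 0.11 on the log2 scale with SGA360 (adjusted p = 0.000308), a value that became 0.004 under scaling by totals alone (adjusted p = 0.892), and by 0.19 with SGA315 (adjusted p = 4.98e-09).

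**Figure D2:**
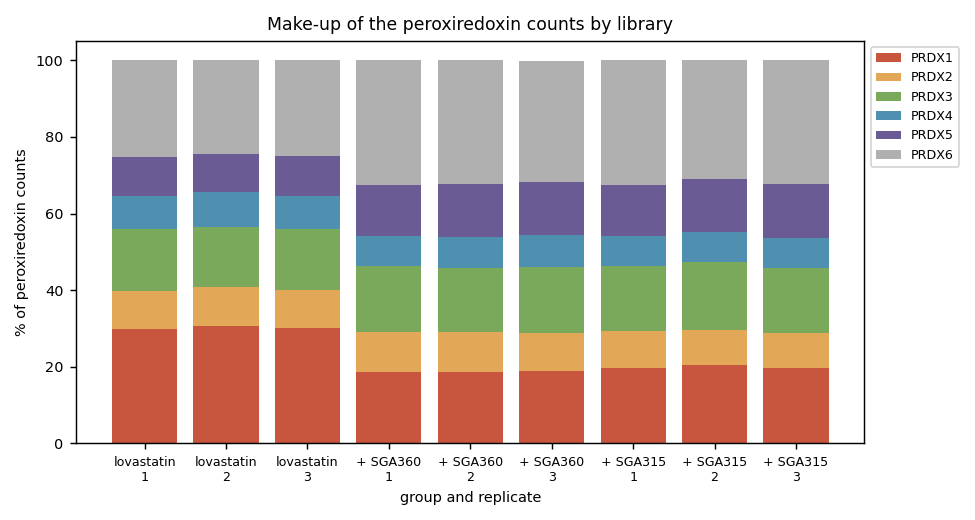
Share of each peroxiredoxin gene in the summed counts of the 6 peroxiredoxin genes (percent, stacked to 100), for the 9 libraries by group and replicate. The PRDX1 share is 29.9 to 30.7% with lovastatin alone and 18.7 to 20.4% in the ligand libraries, and the PRDX6 share moves from 24.5 to 25.2% up to 31.0 to 32.7%.

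The unequal changes altered the make-up of the peroxiredoxin transcripts, a measure that does not depend on how libraries are scaled. PRDX1 made up 30.3% ± 0.39 (SD, n = 3) of peroxiredoxin counts with lovastatin alone, 18.8% ± 0.10 with SGA360 and 20.0% ± 0.40 with SGA315. PRDX6 made up 24.9% ± 0.35, 32.2% ± 0.49 and 31.9% ± 0.83 in the same order, so that it took the largest share with either ligand. The share of PRDX5 was 10.3% ± 0.20, then 13.7% ± 0.37 with SGA360 and 13.8% ± 0.42 with SGA315. The share of PRDX2 was 9.91% ± 0.17, 10.2% ± 0.22 and 9.33% ± 0.12, with the lovastatin and SGA360 libraries overlapping. The summed level of the 6 genes was 1724 to 1733 CPM with lovastatin alone, 1221 to 1253 CPM with SGA360 and 1168 to 1188 CPM with SGA315, without overlap between any groups.

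Between genes, levels were compared per kilobase of the transcript entry, with lengths from GENCODE 29. With lovastatin alone PRDX1 was highest at 423 ± 5.53 CPM per kilobase, followed by PRDX6 at 246 ± 3.58, TXN at 237 ± 2.69 and PRDX5 at 199 ± 4.33. PRDX3 (174 ± 2.81) and PRDX2 (173 ± 2.52) did not differ beyond their spread. PRDX4 (148 ± 4.44), TXNRD1 (84.0 ± 0.982), SRXN1 (41.5 ± 1.62) and TXNRD2 (7.41 ± 0.444) followed. With SGA360 the order at the top was PRDX6 (227 ± 6.42), then PRDX5 (189 ± 3.29) and PRDX1 (188 ± 1.71), which did not differ beyond their spread. With SGA315 it was PRDX6 (215 ± 4.64), PRDX1 (191 ± 5.37) and PRDX5 (182 ± 5.16). With the lengths used, PRDX1 per length went from the first place to a level below PRDX6 with either ligand. This order depends on the entry chosen, which the SDs do not cover. PRDX1 also had an entry of 1021 bases with 99.71% of the counts of the entry used (1234 bases). For TXN there was an entry of 635 bases with 99.98% (869 bases used), and for PRDX5 1 of 463 bases with 79.32% (893 bases used). The order with these lengths was not computed.

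The genes that keep the peroxiredoxins reduced are TXN, TXNRD1, TXNRD2 and SRXN1. TXN, the cytosolic thioredoxin gene, was at 207, 203 and 207 CPM with lovastatin alone, 140, 136 and 130 CPM with SGA360 and 129, 137 and 121 CPM with SGA315. All ligand libraries lay below all lovastatin libraries, and the ligand groups overlapped. TXN fell 1.52-fold with SGA360 (adjusted p = 4.47e-25) and 1.6-fold with SGA315 (adjusted p = 1.72e-27), where it also passed the test against 1.5-fold (adjusted p = 0.0134). TXNRD1, the cytosolic and nuclear thioredoxin reductase, a selenoprotein and the gene with the antioxidant element cores shown above, was at 355, 359 and 364 CPM, then 232, 227 and 224 CPM with SGA360 and 256, 252 and 250 CPM with SGA315. No 2 groups overlapped, and SGA360 gave the lowest level. TXNRD1 fell 1.58-fold with SGA360 (adjusted p = 6.26e-32; adjusted p = 0.0192 in the test against 1.5-fold) and 1.42-fold with SGA315 (adjusted p = 3.1e-26). The lowest of its 7 transcript entries had 98.98% of the counts of the highest, so the 2 starts shown above could not be separated by their counts.

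TXNRD2, the mitochondrial reductase, was the lowest of the 10 genes. It was at 25.0, 22.9 and 22.3 CPM with lovastatin alone, 21.7, 20.8 and 22.2 CPM with SGA360 and 21.4, 20.0 and 17.9 CPM with SGA315. The lovastatin libraries were the highest, by a small margin. The log2 fold change was −0.12 with SGA360 (95% interval −0.26 to 0.02, adjusted p = 0.12), and TXNRD2 fell by 0.24 with SGA315 (adjusted p = 0.00262), a call lost under scaling by totals alone (−0.12, adjusted p = 0.138). SRXN1, the sulfiredoxin gene, was at 116, 112 and 107 CPM, then 83.2, 89.0 and 83.0 CPM with SGA360 and 84.8, 80.9 and 77.4 CPM with SGA315. Lovastatin libraries were above all others and the ligand groups overlapped. SRXN1 fell 1.31-fold with SGA360 (adjusted p = 5.5e-14) and 1.38-fold with SGA315 (adjusted p = 1.05e-16).

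**Figure D3:**
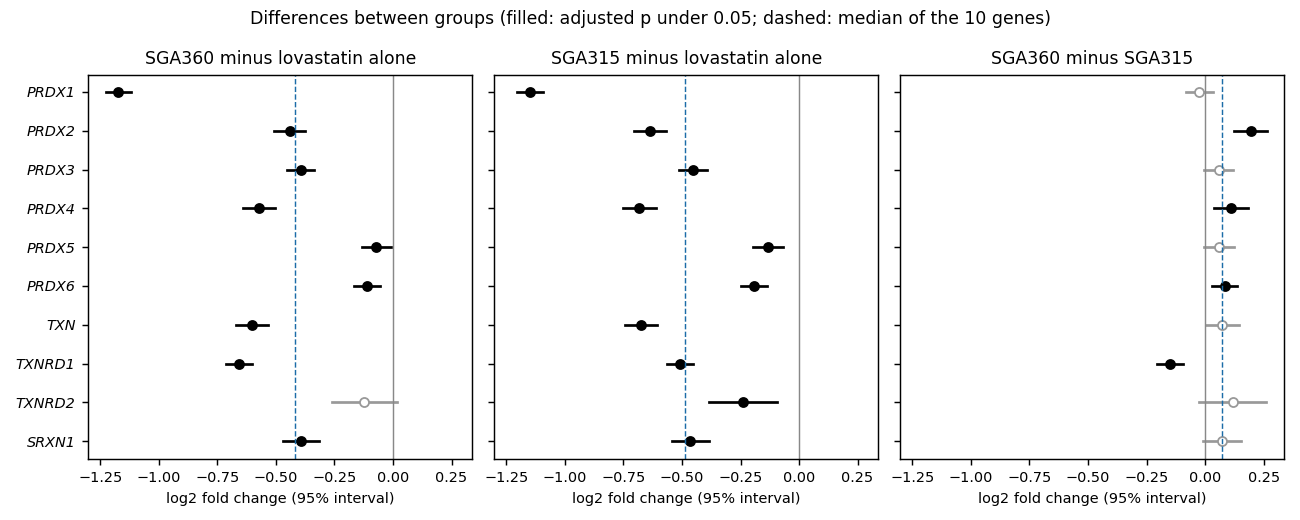
Log2 fold change of each of the 10 genes with its 95% interval in the 3 comparisons; filled points have an adjusted p under 0.05, open points do not, and the dashed line is the median of the 10 genes. PRDX1 lies apart from the other 9 genes in both ligand comparisons, and in SGA360 minus SGA315 every value lies between −0.15 and 0.19.

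**Figure D4:**
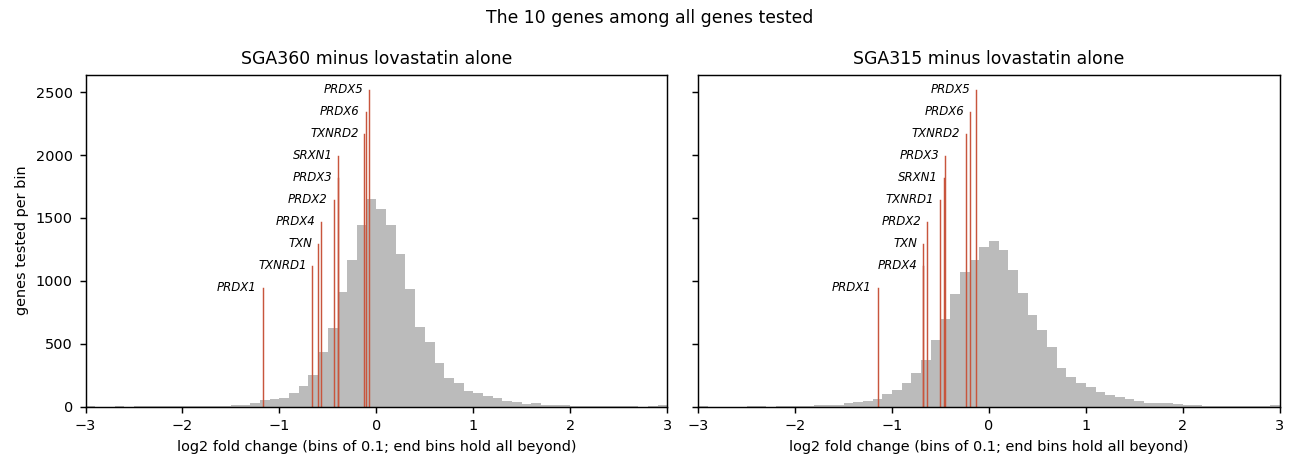
Number of genes tested per bin of 0.1 log2 fold change (grey) for each ligand against lovastatin alone, with red lines at the values of the 10 genes. All 10 lie below the median of all genes in both panels, from −1.17 to −0.07 with SGA360 and from −1.15 to −0.13 with SGA315.

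On TMM-scaled levels, all 10 genes had lovastatin libraries above every library of either ligand (background: groups did not overlap and were lower for 32.9% of genes with SGA360 and 33.8% with SGA315). This separation depended on the scaling for PRDX5 and PRDX6 with SGA360. Scaled by totals alone, mean PRDX5 was 168 CPM with lovastatin alone and 173 CPM with SGA360. Mean PRDX6 was 407 and 408 CPM in the same order. By the stricter test against 1.5-fold, 2 of the 10 genes were lower with SGA360 (PRDX1 and TXNRD1; background: 2.77% lower) and 3 with SGA315 (PRDX1, PRDX4 and TXN; background: 5.13% lower). RefSeq names 7 pseudogenes of TXN and 4 each of PRDX2 and PRDX3, and how reads shared with them were counted is not given in the sources used here.

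The direct comparison of SGA360 with SGA315, at matched dose and time, asked whether the 2 ligands differed. They differed for 4 of the 10 genes, 3 higher and 1 lower with SGA360 (background: 21.8% of all genes tested were higher and 20.9% lower). PRDX2 was 14.4% higher with SGA360 than with SGA315 (log2 0.19 ± 0.035, adjusted p = 4.13e-06), PRDX4 7.91% higher (adjusted p = 0.0125) and PRDX6 5.89% higher (adjusted p = 0.011). The PRDX6 difference was not called without SGA360 replicate 1 (adjusted p = 0.131) and without SGA315 replicate 2 (adjusted p = 0.0571). TXNRD1 was the only 1 of the 10 genes called lower with SGA360 than with SGA315, by 0.15 ± 0.028 on the log2 scale (adjusted p = 1.22e-05). For 5 of the 10 genes the libraries of the 2 ligands did not overlap (background: 49.2%). In edgeR's test against a change of 1.5-fold 0 of the 10 genes differed (background: 0.511% of all genes higher, 0.736% lower), while its test against no change gave the 4 calls above.

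For PRDX1 the difference between the ligands was −0.02 on the log2 scale, with a 95% interval of −0.08 to 0.03 (adjusted p = 0.539). In the same libraries CYP1A1, a classical AHR target, was at 5.45 ± 0.402 CPM with SGA360 and 1053 ± 29.9 CPM with SGA315, on opposite sides of its level with lovastatin alone (44.6 ± 3.82 CPM). PRDX3 differed by 0.06 (interval −0.003 to 0.118, adjusted p = 0.12), PRDX5 by 0.06 (interval −0.003 to 0.124, adjusted p = 0.122) and SRXN1 by 0.07 (interval −0.01 to 0.15, adjusted p = 0.157). TXN differed by 0.07 (interval 0.002 to 0.146, adjusted p = 0.0905), which was called without SGA360 replicate 3 (0.10, adjusted p = 0.0329) and without SGA315 replicate 2 (0.12, adjusted p = 0.00745). PRDX3 was likewise called without SGA315 replicate 2 (0.08, adjusted p = 0.0359). TXNRD2 differed by 0.12 with the widest interval, −0.03 to 0.26 (adjusted p = 0.192).

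The 5 genes whose profile over the 9 libraries was most like that of PRDX1 were HSPE1, TENT5A, LRP2, TENT5C and NKD1, among 11508 genes whose mean reached 5 CPM. Likeness was the Euclidean distance of log2 CPM, each gene centred on its lovastatin mean. HSPE1, which encodes the mitochondrial co-chaperonin HSP10, was nearest (distance 0.12), at a mean of 216.5 CPM with lovastatin alone, 93.1 with SGA360 and 96.1 with SGA315. LRP2, which encodes the endocytic receptor megalin, was at 721, 335 and 312 CPM (distance 0.20).

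**Figure D5:**
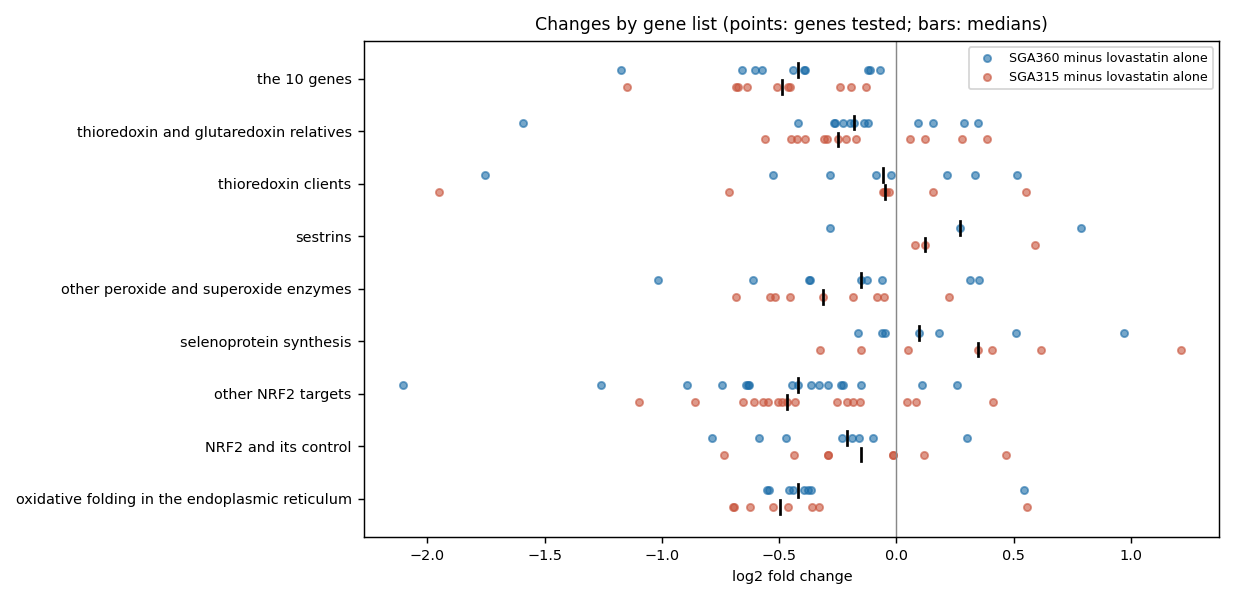
Log2 fold change of every tested gene in the 10-gene set and in 8 related lists, for SGA360 (blue) and SGA315 (red) against lovastatin alone; black bars are medians. The other NRF2 targets (medians −0.42 and −0.46) and the oxidative folding genes (−0.42 and −0.49) lie to the left like the 10 genes, while selenoprotein synthesis genes have medians of 0.10 and 0.35.

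Other genes of the pathway were taken from 8 lists. Their counts stand against shares over all genes tested of 31.4% higher and 31.4% lower with SGA360. With SGA315 these shares were 36.0% higher and 33.2% lower. Among 13 genes related to thioredoxin and glutaredoxin by family or by function, 3 were higher and 7 lower with SGA360 (4 and 4 under scaling by totals alone). With SGA315 these were 3 and 8 (3 and 7). TXNIP, which binds and inhibits thioredoxin, fell from 49.05 ± 1.43 to 16.3 ± 0.449 CPM with SGA360 (adjusted p = 7.67e-34) and to 33.3 ± 1.95 CPM with SGA315 (adjusted p = 1.35e-14). It differed between the ligands by −1.03 on the log2 scale (adjusted p = 2.45e-21). TXN2, the mitochondrial thioredoxin, fell by 0.26 with SGA360 (adjusted p = 3.98e-06) and by 0.22 with SGA315 (adjusted p = 8.46e-05; 0.0787 under scaling by totals alone). The 3 that rose with SGA360 were TXNRD3, a thioredoxin and glutathione reductase (0.29, adjusted p = 0.00429; 0.0514 with DESeq2), nucleoredoxin NXN (0.35, adjusted p = 4.45e-10) and the mitochondrial transhydrogenase NNT (0.16, adjusted p = 0.000271); NNT was named after its values were seen. NXN fell by 0.31 with SGA315 (adjusted p = 1.09e-07), opposite to its rise with SGA360.

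Thioredoxin also reduces ribonucleotide reductase and methionine sulfoxide reductases. Of 8 genes on a list of such clients and MAP3K5, 3 were higher and 2 lower with SGA360 (background: 31.4% higher, 31.4% lower). MAP3K5, named after its values were seen, was not called with either ligand. With SGA315, 2 were higher and 2 lower; the 2 higher were 1 with RLE scaling, with DESeq2, without the filter on low counts, with the lowest accession, and without lovastatin replicate 2 or 3 or SGA315 replicate 1 or 2. RRM2, the small subunit of ribonucleotide reductase, fell from 225.5 ± 1.79 CPM to 66.9 ± 3.77 with SGA360 (adjusted p = 5.54e-49) and to 58.3 ± 1.01 with SGA315 (adjusted p = 2.11e-51). Its large subunit gene RRM1 fell by 0.53 (adjusted p = 2.16e-23) and by 0.71 (adjusted p = 9.56e-30). MSRB2, a mitochondrial methionine sulfoxide reductase, rose by 0.51 with SGA360 (adjusted p = 5.86e-05) and 0.55 with SGA315 (adjusted p = 1.8e-05). Of the 3 sestrins, stress proteins that have been linked to peroxiredoxin recycling, 2 were higher and 1 lower with SGA360, and 2 were higher with SGA315 (1 with DESeq2, without the filter on low counts, and without lovastatin replicate 1 or SGA315 replicate 1 or 2). SESN3 rose from 58.4 ± 3.69 CPM to 101 ± 3.80 with SGA360 (adjusted p = 7.18e-26) and to 88.4 ± 3.68 with SGA315 (adjusted p = 2.39e-19).

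Other peroxide and superoxide enzymes did not all move like the peroxiredoxins. Of 9 tested, 1 was higher and 5 lower with SGA360 (2 and 4 under scaling by totals alone; 2 higher also without lovastatin replicate 3 and with a replicate block), and 1 was higher and 7 lower with SGA315 (1 and 5). GPX2, the gastrointestinal glutathione peroxidase, fell by 1.02 with SGA360 (adjusted p = 6.46e-36) and by 0.68 with SGA315 (adjusted p = 2.63e-27). SOD1, the cytosolic superoxide dismutase, fell by 0.61 (adjusted p = 4.35e-25) and by 0.52 (adjusted p = 1.21e-21). Catalase (CAT), the peroxisomal enzyme that breaks down hydrogen peroxide without thioredoxin, rose from 55.9 ± 1.03 CPM to 71.4 ± 0.540 with SGA360 (adjusted p = 3.98e-11) and to 65.2 ± 0.405 with SGA315 (adjusted p = 7.56e-06). GPX4, which reduces lipid peroxides, had a log2 fold change of −0.06 with SGA360 (adjusted p = 0.0527), close to the threshold. It was called lower with RLE scaling (adjusted p = 0.0253), DESeq2 (0.035) and a replicate block (0.0343). The same held without the filter on low counts (0.0265), with the compared groups only (0.0419) and with the lowest accession (0.0194). GPX4 was also called lower without lovastatin replicate 1 or 3, SGA360 replicate 2 or 3, or any single SGA315 replicate. Under scaling by totals alone it was 0.05, not called. With SGA315 it was −0.08 (adjusted p = 0.00802; 0.04 under scaling by totals alone, adjusted p = 0.2).

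Both thioredoxin reductases need selenocysteine. Of 7 genes of selenoprotein synthesis 3 were higher and 1 lower with SGA360 (4 and 0 under scaling by totals alone), and 4 were higher and 1 lower with SGA315. SEPSECS, which converts phosphoseryl-tRNA to selenocysteinyl-tRNA, rose from 8.42 ± 0.780 CPM to 16.5 ± 0.770 with SGA360 (adjusted p = 8.92e-15) and to 19.5 ± 0.738 with SGA315 (adjusted p = 1.75e-19). SEPHS2, the selenophosphate synthetase, rose by 0.51 (adjusted p = 3.13e-23) and by 0.62 (adjusted p = 1.07e-27). TXNRD1 and these 2 genes thus changed in opposite directions with each ligand. SEPHS1, the 1 lower gene of the list, moved the same way as TXNRD1. Its log2 fold change was −0.165 with SGA360 (adjusted p = 1.29e-05, and 0.173 under scaling by totals alone) and −0.328 with SGA315 (adjusted p = 1.4e-13).

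Of 17 other NRF2 targets 2 were higher and 15 lower with SGA360 (2 and 14 under scaling by totals alone), and 2 were higher and 14 lower with SGA315 (3 and 12). The 2 higher with each ligand were the ferritin genes, which store iron, named after their values were seen. FTH1 rose by 0.26 with SGA360 (adjusted p = 3.99e-13) and by 0.41 with SGA315 (adjusted p = 7.14e-22), and FTL by 0.11 (adjusted p = 4e-04) and 0.08 (adjusted p = 0.00483). The rise of FTL with SGA315 ended without lovastatin replicate 2 (adjusted p = 0.0948) and without SGA315 replicate 1 (adjusted p = 0.0508). NQO1, a quinone reductase, fell by 0.89 with SGA360 (adjusted p = 2.28e-40) and by 0.49 with SGA315 (adjusted p = 1.57e-26). AKR1C1 fell by 1.26 with SGA360 (adjusted p = 9.74e-35) but had a log2 fold change of 0.05 with SGA315 (adjusted p = 0.306; called higher at 0.17 under scaling by totals alone), and its sequence is shared with other AKR1C genes. HMOX1, the haem oxygenase, fell by 0.15 (adjusted p = 0.000918) and 0.19 (adjusted p = 7.09e-05), calls lost under scaling by totals alone (adjusted p = 0.423 and 0.159).

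Among 8 genes of NRF2 and its control 1 was higher and 7 lower with SGA360 (1 and 3 under scaling by totals alone), and 2 were higher and 4 lower with SGA315 (4 and 4; 1 higher with DESeq2, without lovastatin replicate 2 and without SGA315 replicate 1). NFE2L2, the NRF2 gene, fell from 104 ± 2.43 CPM to 74.8 ± 1.57 with SGA360 (adjusted p = 2.48e-17) and to 84.8 ± 3.44 with SGA315 (adjusted p = 5.9e-10). KEAP1, which targets NRF2 for degradation, fell from 88.2 ± 2.97 CPM to 58.6 ± 2.60 (adjusted p = 6.94e-20) and 65.1 ± 2.18 (adjusted p = 1.21e-14). BACH1, a repressor at antioxidant response elements, rose by 0.30 with SGA360 (adjusted p = 9.59e-08) and by 0.47 with SGA315 (adjusted p = 6.96e-14). The activator NFE2L2 and its inhibitor KEAP1 were lower with both ligands, and the repressor BACH1 was higher. The small MAF genes did not move alike. MAFF was lower with both (−0.79 with SGA360, adjusted p = 1.91e-12, and −0.74 with SGA315, adjusted p = 2.08e-11). So was MAFK, named after its values were seen (−0.23, adjusted p = 0.000583, and −0.29, adjusted p = 3.18e-05). MAFG fell by 0.16 with SGA360 (adjusted p = 0.000958) but rose by 0.12 with SGA315 (adjusted p = 0.0101, 0.143 with DESeq2). Under scaling by totals alone the SGA360 calls of MAFG (adjusted p = 0.368) and MAFK (0.079) were lost.

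PRDX4 works beside the oxidative folding enzymes of the endoplasmic reticulum. Of 8 such genes 7 were lower and 1 higher with either ligand, also under scaling by totals alone. PDIA6, a protein disulfide isomerase, fell by 0.54 with SGA360 (adjusted p = 8.26e-29) and by 0.69 with SGA315 (adjusted p = 2.06e-34), next to −0.57 and −0.68 for PRDX4. ERO1A, the oxidase that passes electrons from disulfide isomerase to oxygen and makes hydrogen peroxide, fell by 0.46 (adjusted p = 6.81e-18) and by 0.70 (adjusted p = 6.33e-26). The gene that rose was ERO1B, its paralogue, at 5.27 ± 0.317 CPM with lovastatin alone, 7.69 ± 0.431 with SGA360 (adjusted p = 9.22e-05) and 7.71 ± 0.704 with SGA315 (adjusted p = 6.52e-05), named after its values were seen.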

How the data were processed

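The deposited table holds raw read counts per RefSeq transcript accession and library, per the file headers. The submitters' processing notes list TopHat2 2.0.13, HTSeq 0.5.4p3 and hg19 but not what each did; strand setting and annotation release: not given in the sources used here. Entries were named with RefSeq of GRCh38.p14 (64340 of 65325) and GENCODE 29 (571); 414 matched neither, held 0.224% of counts and were left out. Transcripts of a gene repeat shared reads, so the entry with the highest total stood for each gene, and 43 genes with counts identical to another gene's were dropped. Counts were tested with edgeR 4.0.16 (R 4.3.3): TMM, filterByExpr (minimum count 10, total 15), quasi-likelihood F test, all 9 libraries in 1 fit, Benjamini-Hochberg adjustment over 14683 genes, calls at 0.05. Adjusted p-values come from it where no other tool is given. Levels are CPM, counts relative to the TMM-scaled library size, computed here, changes are log2 fold changes ± SE; marker sums use library totals only. On simulated data the test recovered 93%, 96% and 86% of genes changed 2-fold and 72%, 58% and 65% of those changed 1.25-fold, for SGA360, SGA315 and their difference (100 changed genes each among 14683), with 3.51%, 5.52% and 7.93% false calls. Each simulation changed 200 genes, far fewer than were called in these data, so its rates may not hold for the real comparisons. Alternatives were RLE scaling, totals only, DESeq2 1.42.0, no filter, the compared groups only, a replicate block, the lowest accession, each library left out, and, added after the data were seen, a test against 1.5-fold. The members and lists were chosen with earlier results of these data known. Named list genes are fixed names or, per list and comparison, the 3 with the smallest p; others are marked. Some items are not reported here.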

Additional observations from a re-analysis of the deposited data

How the results depend on the processing

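The counts of lower and higher genes among the 10 kept their direction under all 16 alternatives other than the test against 1.5-fold. Lower calls with SGA360 were 7 to 9 and with SGA315 8 to 10, the lowest with scaling to totals only in both cases, and the 4 differences between the ligands were 3 to 5 when single libraries were left out. The test against 1.5-fold left 2 lower genes with SGA360, 3 with SGA315 and 0 differences between the ligands (0 higher, 0 lower). With scaling to totals only PRDX5 (0.044) and PRDX6 (0.004) turned positive with SGA360 without being called, as did SQSTM1 (0.013). With SGA315 the same scaling turned GPX4 to 0.039 (adjusted p = 0.2), CUL3 to 0.107 (adjusted p = 0.0229) and SQSTM1 to 0.107 (adjusted p = 0.000148); SQSTM1, a selective autophagy receptor gene, was named after its values were seen. The median of all genes moves under that scaling by construction. It also moved the share of higher among called genes from 50% to 67.4% with SGA360 and from 52% to 65.7% with SGA315. A replicate block left the 9, 10 and 4 calls among the 10 genes as they were. Among the other peroxide and superoxide enzymes it raised the higher calls with SGA360 from 1 to 2 and those of SGA360 against SGA315 from 3 to 5. With SGA360, it also called GPX4 (adjusted p = 0.0343), GLRX2 (0.0439) and GPX8 (0.0428), and between the ligands SOD2 (0.0488) and GPX8 (0.0399); GLRX2 and GPX8 were named after their values were seen. Over all genes, it gave 4681 higher and 4660 lower calls with SGA360. Same-numbered libraries correlated at 0.012 to 0.086 (deviations from group means, 9 pairs), so the numbers were not taken to pair them, though 8 of 9 libraries correlated best with a library of their own number, a hint from the data and not from the design. Intervals and spreads cover these libraries only. The SE of a log2 change was 0.0271 to 0.0410 for 9 of the 10 genes and 0.0696 to 0.0725 for TXNRD2, the gene with the fewest counts.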
